A study of Homo sapiens with 6 samples.

Results

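CHRDL1, SPN and LINC00632 are 3 genes, of 25992 in the count table, chosen by their measured levels: the CPM of each was lower in every copper library than in every control library. The RNA came from 786-O cells, a human line derived from clear cell kidney cancer that is labelled wild type and lacks functional VHL. In 3 samples the cells had been adapted to copper sulfate, which was first bound to serum proteins, and the 3 control samples received serum handled alike without copper. All cells grew in DMEM/F12 medium with 10% serum, and the copper labels read 30, 31 and 32 uM for replicates 1, 2 and 3, where the series text names 30 uM only. The sample descriptions carry further numbers, 6, 7 and 9 for copper and 1, 2 and 4 for control, with no word on what they number. The labels do not say whether replicates were separate cultures, so the spread between them may be technical, and a single line limits what the samples stand for. Since the values of this same contrast chose the genes, their levels are given as a description and no test is attached to them. The standard errors (SE) of their fold changes are descriptive too, since this choice favours genes with a small SE for their difference.

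The 3 genes have unrelated products. CHRDL1 encodes chordin-like 1, a secreted protein that binds bone morphogenetic proteins (BMPs) and keeps them from their receptors. BMPs signal through paired serine/threonine kinase receptors and SMAD proteins, and in kidney they act in nephron formation and in the response to injury. SPN encodes sialophorin (CD43), a heavily O-glycosylated transmembrane sialomucin best known from leukocytes, whose cytoplasmic tail binds the ezrin, radixin and moesin linkers to actin. LINC00632 is a long non-coding RNA gene whose longer transcripts run antisense to CDR1 and give rise to the circular RNA CDR1as, which binds the microRNA miR-7.

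The sequences upstream of the starts of CHRDL1 and LINC00632 are shown because both deposited gene rows begin exactly there and because the 2 promoters are of opposite base composition. They are the 250 bases before each start in RefSeq GRCh38.p14, written 5′ to 3′ on the strand of the gene, at chrX:110795818-110796067 on the minus strand for CHRDL1 and chrX:140709509-140709758 on the plus strand for LINC00632. Capitals mark a match to either form searched of the metal response element, the site of the metal-sensing factor MTF1.
CHRDL1: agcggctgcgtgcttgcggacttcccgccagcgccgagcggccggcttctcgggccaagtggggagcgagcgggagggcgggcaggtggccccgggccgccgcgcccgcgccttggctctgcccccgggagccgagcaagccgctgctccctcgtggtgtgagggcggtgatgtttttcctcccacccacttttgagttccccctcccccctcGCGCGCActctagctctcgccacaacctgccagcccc
LINC00632: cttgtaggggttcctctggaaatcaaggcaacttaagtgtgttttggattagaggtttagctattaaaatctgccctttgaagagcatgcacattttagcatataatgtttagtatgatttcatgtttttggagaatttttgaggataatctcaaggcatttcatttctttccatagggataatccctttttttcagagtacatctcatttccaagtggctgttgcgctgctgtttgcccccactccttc
RefSeq sequence was matched for 2 of the 3 genes, and none is shown for SPN. The CHRDL1 stretch held 73.2% G and C and 27 CpG pairs, against a median of 58.0% and 11 over 35116 promoter windows of the same length. The LINC00632 stretch held 38.4% and 1 CpG pair, and only 10.1% of windows had a lower G and C content. On both strands, CHRDL1 had 1 match to TGCGCNC, which is present in 16.8% of all windows, and 0 to TGCACNC, present in 9.9%. LINC00632 had 0 matches to either form. One further match in CHRDL1 was to GCGTG, a hypoxia response element core found in 32.2% of windows. Neither window held ACGTG (18.5% of windows), the antioxidant response element TGACNNNGC (10.9%), or the SMAD motifs GGCGCC (16.4%) and CAGAC (38.0%). In these windows no match overlapped a match to another motif.

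The libraries held between 16301903 and 25080117 counts, with the copper libraries at the lower end (16301903 to 18189608, against 19219240 to 25080117 in control). Replicate 3 of both groups stood apart from the others on the first principal component, which carried 57.9% of the variance of log2 CPM. Levels below are CPM, read counts divided by the TMM-scaled size of the library. Of the 25992 genes, 12944 passed the filter on low counts and were tested, and all 3 genes were among them, with at least 15 counts in every library.

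LINC00632 showed the largest difference of the 3. Its level was 0.914, 1.07 and 1.13 CPM in copper replicates 1, 2 and 3 and 3.38, 3.97 and 4.30 CPM in control replicates 1, 2 and 3. The groups were far apart: the lowest control library was 2.98 times the highest copper library. The copper mean was 1.04 ± 0.112 CPM and the control mean 3.88 ± 0.465 CPM (SD, n = 3), so that copper stood at 26.7% of control, a log2 fold change of -1.80 (SE 0.20, edgeR). These values rest on few reads, 15, 19 and 21 in the copper libraries against 84, 81 and 82 in the control libraries. The 95% Poisson intervals, which cover counting error only, were 0.512 to 1.51 CPM for copper replicate 1 and 2.69 to 4.18 CPM for control replicate 1. The coefficient of variation between copper libraries was 10.8%, below the 23.4% that Poisson counting alone gives at this depth. In control the libraries varied by 12.0%, close to their counting limit. Differences between replicates were not detectable at this depth. As for all levels here, fewer cells with the RNA and less RNA per cell cannot be told apart in bulk libraries.

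CHRDL1 came next in size of difference. Its level was 5.06, 5.05 and 5.61 CPM in copper replicates 1, 2 and 3 and 11.2, 9.80 and 12.9 CPM in control replicates 1, 2 and 3. The copper libraries lay close together and the control libraries were more spread, with control replicate 2 the lowest and control replicate 3 the highest. The copper mean was 5.24 ± 0.322 CPM and the control mean 11.3 ± 1.57 CPM (SD, n = 3). Copper stood at 46.3% of control, a log2 fold change of -1.09 (SE 0.15), and the lowest control library was 1.75 times the highest copper library. The raw counts behind these levels ran from 83 to 104 for the copper libraries and from 200 to 278 for the controls. The spread between copper libraries (6.15%) was below the 10.4% that Poisson counting gives, the counting limit, and that between control libraries (13.9%) was above the limit of 6.43%.

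SPN had the highest CPM of the 3, before any allowance for length, and the smallest difference. Its level was 12.7, 16.0 and 17.2 CPM in copper replicates 1, 2 and 3 and 24.6, 25.9 and 30.3 CPM in control replicates 1, 2 and 3. In both groups replicate 3 was the highest and replicate 1 the lowest. The copper mean was 15.3 ± 2.32 CPM and the control mean 26.9 ± 2.98 CPM (SD, n = 3). Copper stood at 56.7% of control, a log2 fold change of -0.81 (SE 0.15), and the lowest control library was 1.43 times the highest copper library. The copper libraries held 208 to 318 counts and the controls 528 to 612, and the spread between libraries (15.2% in copper, 11.1% in control) exceeded the counting limits of 6.08% and 4.18%.

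**Figure D1:**
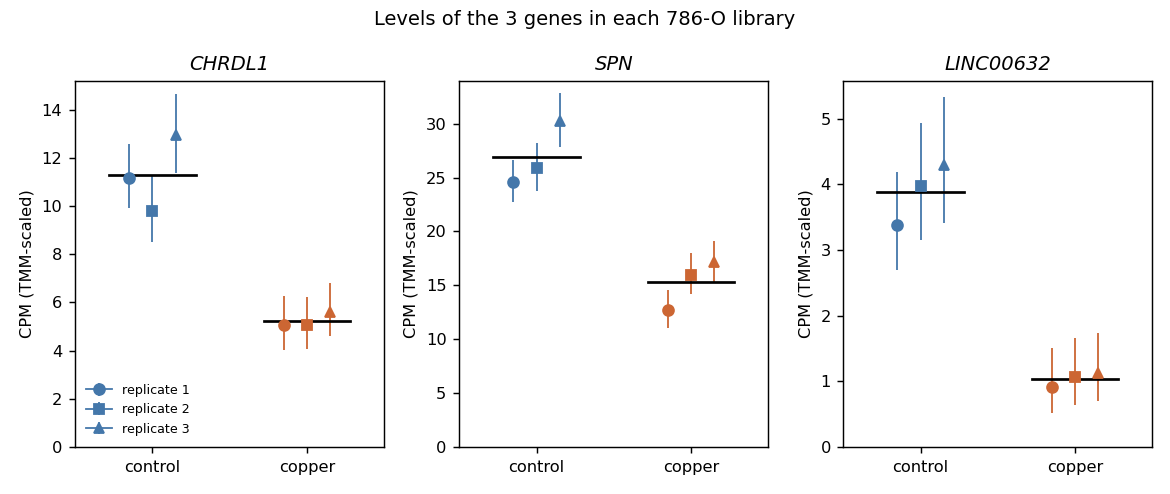
TMM-scaled CPM (vertical axis, from 0) of CHRDL1, SPN and LINC00632 in the 3 control and 3 copper libraries. Symbols give the replicate number, vertical bars the 95% Poisson interval of each count and horizontal bars the group mean. The highest copper library lies below the lowest control library in each panel, at 5.61 against 9.80 CPM for CHRDL1.

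All 3 genes were read out in the same 6 libraries, and replicate 3 was the highest of its group for each of them in both groups. When each copper library was set beside the control library of the same number, LINC00632 stood at 27.1, 26.8 and 26.4% of control in replicates 1, 2 and 3. CHRDL1 stood at 45.3, 51.5 and 43.4%, and SPN at 51.5, 61.8 and 56.7%. For CHRDL1 and SPN the difference was smallest in replicate 2. The order of the 3 genes by size of difference was LINC00632, CHRDL1, SPN in each replicate number.

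**Figure D2:**
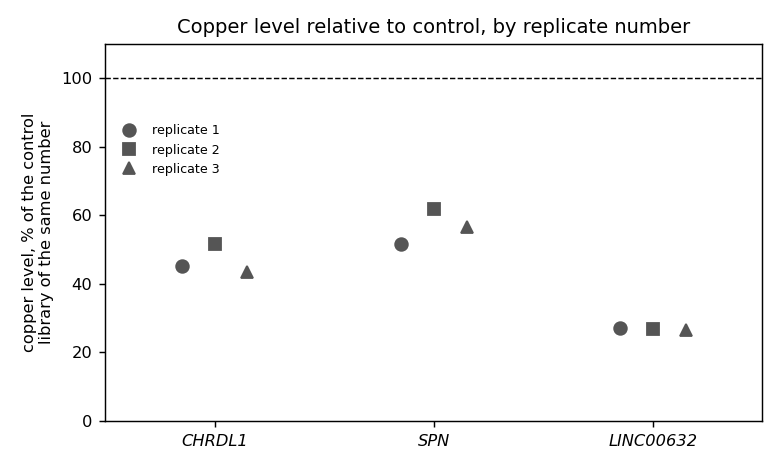
Level in each copper library as a percentage of the control library with the same replicate number (vertical axis), for CHRDL1, SPN and LINC00632. The dashed line marks equality at 100%. LINC00632 lies between 26.4 and 27.1%, below both other genes.

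Levels can be compared between genes only per length of transcript. GENCODE 29 transcripts that span the deposited rows are 1537 to 3860 bases long for CHRDL1, 1853 to 6894 for SPN and 880 to 1606 for LINC00632. In copper this gives 1.36 to 3.41 CPM per kilobase for CHRDL1, 2.21 to 8.24 for SPN and 0.646 to 1.18 for LINC00632. In control the ranges were 2.93 to 7.36, 3.91 to 14.5 and 2.42 to 4.41 CPM per kilobase. The 3 ranges overlapped in control. In copper that of LINC00632 lay below those of CHRDL1 and SPN, which overlapped each other. On mean CPM, 14.1% of tested genes were at or below LINC00632, 25.9% at or below CHRDL1 and 41.6% at or below SPN.

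The rule that chose the 3 genes is met by many others. Of 12944 tested genes, 693 (5.35%) were lower in every copper library than in every control library, and 705 (5.45%) were higher in every copper library. With 3 libraries per group, about this share separates in each direction when libraries are interchangeable and copper has no effect. The count of 693 is therefore no measure of a copper response, and how many of the 693 separated without any effect was not tested. The 693 had a median log2 fold change of -0.22 and 17 of them were lower by 2-fold or more. Within the 693, LINC00632 was the lowest by log2 fold change, CHRDL1 was at place 12 and SPN at place 30, and by the ratio of the lowest control to the highest copper library they were at places 1, 5 and 14. At the edge of the rule, among genes averaging 1 CPM or more, RIN2 was just inside (70.832 CPM in its highest copper library, 70.838 in its lowest control library) and IGSF3 just outside, with a ratio of 0.99998. Nothing can be read from these places, since the same values chose the genes. Over all genes, edgeR's quasi-likelihood test called 0 of 12944 (0%) at an adjusted p under 0.05, and 455 (3.52%) had an unadjusted p under 0.05. limma-voom called 0 genes and DESeq2 27. With the replicate number as a block edgeR called 22 genes (0.17%), 6 of them lower (0.0464%).

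**Figure D3:**
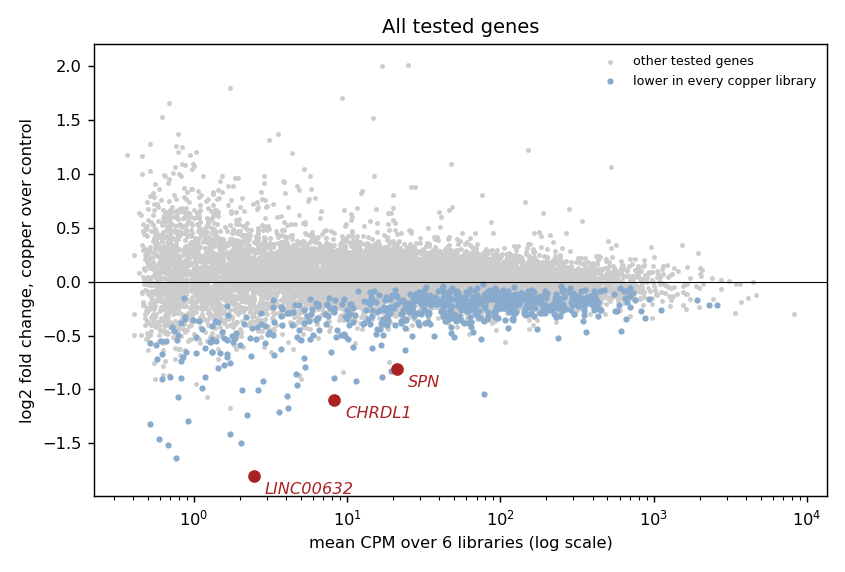
Log2 fold change of copper over control (vertical axis) against mean CPM over the 6 libraries (horizontal axis, log scale) for 12944 tested genes. Blue points are the 693 genes lower in every copper library. CHRDL1, SPN and LINC00632 (red) lie at -1.09, -0.81 and -1.80.

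The genes with the most similar profiles were found from log2 CPM centred on the mean of each gene, as the smallest root mean square difference over the 6 libraries among 12125 other genes that averaged 1 CPM or more. For CHRDL1 the nearest profile was that of SPN (0.186 on the log2 scale), followed by SELENOW, a small selenoprotein (0.204), and RBM44, an RNA-binding protein gene (0.239). SELENOW was at 51.2 ± 9.65 CPM in copper and 106 ± 8.27 CPM in control (SD, n = 3). RBM44 was at 0.799 ± 0.133 and 1.55 ± 0.268 CPM. For SPN the nearest were COL5A1, a fibrillar collagen chain (0.131), TRIM7, a ubiquitin ligase (0.132), and MATN3, the matrix protein matrilin-3 (0.143), with CHRDL1 at place 12. COL5A1 was at 3.85 ± 0.635 CPM in copper and 6.76 ± 0.689 CPM in control. For LINC00632 no profile came as close. The nearest were NPPB, which encodes the B-type natriuretic peptide (0.377), CHRDL1 (0.383) and SELENOW (0.400), and SPN was at place 10 (0.496). NPPB was at 1.00 ± 0.469 CPM in copper and 3.07 ± 0.887 CPM in control. Profiles that share the group difference are near each other by construction, and the measure carries no test.

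The difference at each locus was set beside the genes around it, on positions of the deposited table with 1 added to its starts and GRCh38 as the build named in the submitters' processing notes. CHRDL1 (Entrez 91851) lies on the minus strand of chromosome X, 110673856 to 110795817, and its 5 GENCODE transcripts have 10 to 12 exons. LINC00632 (Entrez 286411) lies on the plus strand of chromosome X, 140709759 to 140772676. SPN (Entrez 6693) lies on the plus strand of chromosome 16, 29662950 to 29670872. Of the tested genes nearest on each side, 11 are given here and 0 of them were called. These 11 lie 148 to 885 kb from CHRDL1, 8.31 to 697 kb from SPN and 401 to 1500 kb from LINC00632. Around CHRDL1 the log2 fold changes were 0.06 (SE 0.10) for TMEM164, -0.06 (SE 0.20) for AMMECR1, 0.33 (SE 0.33) for the kinase gene PAK3 and -0.04 (SE 0.09) for the glycosylation gene ALG13. Around SPN they were 0.03 (SE 0.11) for NFATC2IP, -0.11 (SE 0.34) for NPIPB11, 0.01 (SE 0.27) for QPRT and -0.07 (SE 0.15) for the kinesin gene KIF22. Around LINC00632 they were -0.39 (SE 0.26) for FGF13, 0.04 (SE 0.15) for LDOC1 and 0.30 (SE 0.38) for SPANXA2-OT1, which was at 0.0223 without copper replicate 2 and 0.606 without copper replicate 3. The groups overlapped for each of these 11 genes, and the adjusted p by edgeR was 1 for each without the block and between 0.647 and 0.985 with it. NPIPB11 belongs to a family of near-identical copies, so its count is uncertain. The 3 genes were chosen for a difference and the neighbours by position, so their contrast was set by the choice and is no evidence about the loci.

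**Figure D4:**
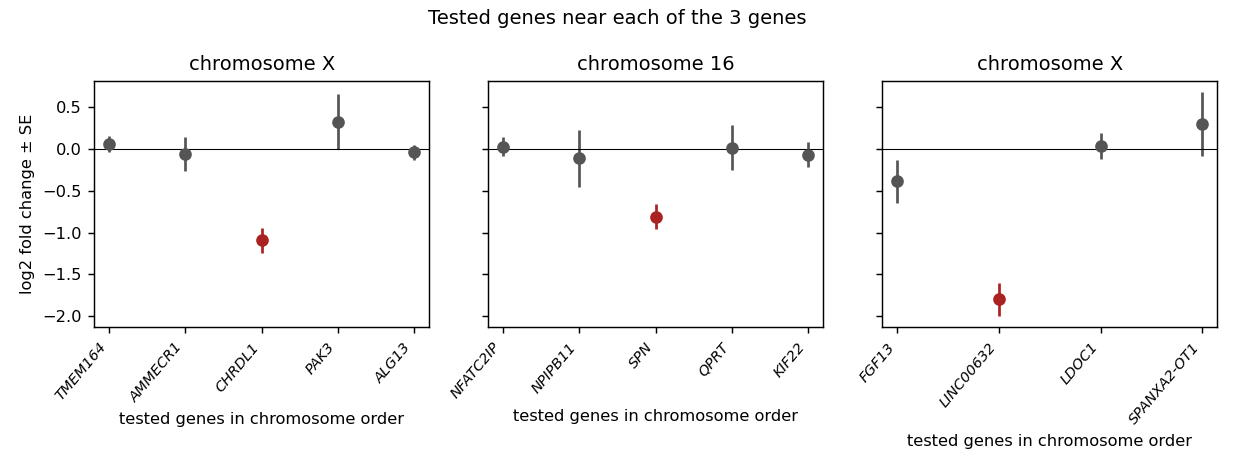
Log2 fold change of copper over control with its SE (vertical axis) for CHRDL1, SPN and LINC00632 (red) and 11 tested genes near them (grey), in chromosome order and not to scale. The 11 neighbours lie between -0.39 and 0.33, and the 3 genes between -1.80 and -0.81. The 3 genes were chosen for their difference, which also favours a small SE, and the neighbours by position.

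The annotation bears on what was counted. GENCODE 29 places a further protein-coding gene, AC009086.2, on the same strand as SPN, overlapping the SPN row by 7594 bases and reaching past the start of QPRT. It was not analysed here, and the handling of shared reads by the authors is not given in the sources used here. QPRT, the NAD synthesis enzyme quinolinate phosphoribosyltransferase, begins 8.31 kb after SPN and was at 26.7 ± 8.73 CPM in copper and 26.5 ± 6.05 CPM in control (SD, n = 3). The deposited LINC00632 row ends 10902 bases before CDR1 (chromosome X, 140783578 to 140784366, minus strand) and 18681 bases before the RefSeq end of the gene. The values of LINC00632 therefore describe the first part of the locus, and CDR1 and the circular RNA antisense to it were not analysed here. No other GENCODE gene overlaps the LINC00632 or CHRDL1 rows.

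The BMP pathway around CHRDL1 was taken from lists written from general knowledge, and 0 of their tested genes were called with or without the block. Over these lists and those on SPN, LINC00632 and cell types below, 117 genes were tested, and edgeR, the blocked fit, DESeq2 and limma-voom called 0 of them. An unadjusted p under 0.05 was given to 8, 22, 8 and 7 of the 117 (6.84, 18.8, 6.84 and 5.98%), where the shares over all tested genes were 3.52, 8.41, 3.41 and 3.58%. The BMP ligand list held 14 genes, of which 6 were tested, 3 higher and 3 lower. Their median log2 fold change was -0.02, beside 0.0052 over all tested genes. The higher genes were BMP1, GDF15 and BMP8A (0.23), and the lower were BMP2, BMP8B (-0.14) and GDF11 (-0.15). BMP8A, BMP8B and GDF11 were named after their values were seen. BMP1 is a protease and GDF15 a stress-responsive cytokine, so the even split does not describe BMPs alone. BMP4 and BMP7, ligands known to bind chordin-like proteins or chordin, were barely detected, with 0 to 2 and 0 to 3 counts per library. The ligand BMP2, named after its values were seen, had 191 to 310 counts per library. Its log2 fold change was -0.08. The most abundant ligand-list gene per length was BMP1, a metalloprotease that cleaves procollagen and chordin, at 82.2 ± 14.3 CPM in copper and 79.9 ± 7.46 CPM in control. GDF15, a stress-responsive cytokine, had the smallest p of that list. It was at 7.61 ± 2.51 CPM in copper and 3.83 ± 1.08 CPM in control, with an adjusted p by edgeR of 1 without the block and 0.0533 with it.

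The 17 other secreted BMP antagonists in the table included 7 that were tested, and all 7 had a log2 fold change below 0 (48.6% of all tested genes did). That number was 6 with upper-quartile scaling and 5 with total counts, and also 5 without copper replicate 2, copper replicate 3 or control replicate 2. The median was -0.12 (-0.214 to -0.0583 with one library left out), and the groups overlapped for each of the 7. FSTL1, a secreted follistatin-like glycoprotein and the most abundant, was at 1820 ± 496 CPM in copper and 2140 ± 398 CPM in control. TWSG1, a BMP-binding partner of chordin, had the smallest p of the list, with a log2 fold change of -0.24 (SE 0.18) that was -0.0583 without copper replicate 3. CHRD and CHRDL2, the closest relatives of CHRDL1, had 0 to 2 and 1 to 5 counts per library. Of this family CHRDL1 was the member detected above a few reads.

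BMP receptors and SMADs were lower by small amounts that did not pass the test. All 12 tested members had a log2 fold change below 0 (11 with upper-quartile scaling and with total counts), with a median of -0.18, and 4 were lower in every copper library (ACVR1, ACVR2A, ACVR2B and SMAD4, named after their values were seen), where 5.35% of all tested genes were. Without copper replicate 3 the number below 0 was 10 of 13 tested and the median -0.0757. The median was -0.07, -0.16 and -0.34 in replicates 1, 2 and 3, so it was largest in the replicate that stood apart. SMAD9, a BMP-activated SMAD, had the smallest p of the list, at 76.5 ± 7.57 CPM in copper and 99.5 ± 15.1 CPM in control, with an adjusted p by edgeR of 1. SMAD5, the most abundant per length, was at 154 ± 33.7 and 175 ± 3.94 CPM. Of 15 tested BMP target and feedback genes, 5 were higher and 10 lower, with a median of -0.03. The ID genes, direct targets that encode inhibitors of helix-loop-helix factors, had log2 fold changes of -0.01 (ID1, SE 0.35), 0.05 (ID2, SE 0.18) and -0.03 (ID3, SE 0.15). That of ID1 turned to 0.02 with total counts and 0.03 with upper-quartile scaling, and that of ID3 to 0.0029 with total counts. GATA2 had the smallest p, at 19.0 ± 0.395 CPM in copper and 22.1 ± 1.43 CPM in control, with an adjusted p of 1.

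The genes around SPN were likewise not called. Of 9 tested genes of the linkers between membrane and actin, 4 were higher and 5 lower, with a median of -0.07. Moesin (MSN), the most abundant linker per length, was at 700 ± 85.5 CPM in copper and 753 ± 48.5 CPM in control, with ezrin (EZR) at 272 ± 36.4 and 271 ± 26.4 CPM, and radixin (RDX) at 306 ± 80.3 and 320 ± 26.3 CPM. ROCK1, a kinase that acts on them, had the smallest p, with a log2 fold change of -0.18 (SE 0.18). Of 8 tested cell surface sialomucins and related glycoproteins, 4 were higher and 4 lower, with a median of -0.02. CD24, a small mucin-like glycoprotein, was at 581 ± 194 and 494 ± 155 CPM, and podocalyxin (PODXL) at 16.2 ± 2.56 and 19.6 ± 2.14 CPM.

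Mucin-type O-glycosylation enzymes, which build the sugar chains that cover sialophorin, were spread around 0. Of 19 tested, 9 were higher and 10 lower, with a median of -0.02, and 2 were lower and 2 higher in every copper library (5.35 and 5.45% of all tested genes). GALNT2, an enzyme that starts the chains, was at 395 ± 6.57 CPM in copper and 433 ± 10.7 CPM in control. ST6GALNAC3, a sialyltransferase, had the largest shift of the list, at 0.300 ± 0.231 and 1.05 ± 0.0949 CPM, with an adjusted p by edgeR of 1 without and 0.299 with the block. Among 5 tested ligands reported for sialophorin, 3 were higher and 2 lower. Galectin-1 (LGALS1) was at 1430 ± 400 and 1310 ± 82.9 CPM, and ICAM1, an adhesion receptor, at 125 ± 18.3 and 148 ± 6.12 CPM.

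Leukocyte markers were near background, although SPN is best known from leukocytes. PTPRC, the pan-leukocyte phosphatase CD45, had 0 to 4 counts per library, where SPN had 208 to 612. Of 24 markers, 4 were tested and 0 were called, and the summed level of all 24 lay between 5.24 and 10.5 CPM in the copper libraries and between 4.26 and 7.28 CPM in the controls, less than the level of SPN alone in every library. ITGAX, the highest of them, was at 2.48 ± 1.53 CPM in copper and 1.24 ± 0.425 CPM in control. LCP1 was at 0.560 ± 0.300 and 0.344 ± 0.212 CPM. The 4 tested leukocyte markers had log2 fold changes above 0, with a median of 0.41. That median was 0.202 with a filter at a mean of 10 counts and 0.142 with no filter. It was 0.914 without copper replicate 1 and 0.304 without copper replicate 2, and in each of these fits 1 of 5 tested markers was below 0. Fibroblast and endothelial markers summed to between 11.1 and 14.9 CPM in the copper libraries and between 13.6 and 20.7 CPM in the controls. Of 11 such markers, 4 were tested, 1 higher and 3 lower, and 0 were called. Their median log2 fold change was -0.40 (-0.470 to -0.0507 with one library left out). Among them COL1A1 was at 3.42 ± 1.23 and 6.53 ± 2.42 CPM (adjusted p by edgeR of 1) and LUM at 3.47 ± 1.31 and 2.40 ± 0.808 CPM. COL3A1 had 3 to 14 counts and PECAM1 0 to 3. Their part in the levels of the 3 genes was not tested.

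The label of the cells was checked against kidney carcinoma markers, of which 9 of 10 were tested and 0 called. Of the 9, 3 were higher and 6 lower, and 2 were higher in every copper library, where 5.45% of all tested genes were. PAX8, the renal lineage factor, had 2278 to 3661 counts per library, and VIM was the most abundant, at 3130 ± 571 CPM in copper and 3120 ± 205 CPM in control. LHX1 had the smallest p, at 17.2 ± 2.34 and 13.6 ± 0.301 CPM. CA9, a common marker of clear cell carcinoma, had 0 to 2 counts per library.

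Around LINC00632, 8 genes linked to CDR1as, miR-7 or microRNA handling were tested. All 8 had a log2 fold change below 0 (7 with upper-quartile scaling and with total counts), with a median of -0.09, and 0 were called. Of the 8, 2 were lower in every copper library than in every control library, where 5.35% of all tested genes were. Without copper replicate 3 only 3 of the 8 were below 0 and the median was 0.0347. HNRNPK, whose intron holds a miR-7 gene, was at 711 ± 76.9 and 720 ± 27.1 CPM. Its log2 fold change of -0.02 turned to 0.0080 with total counts and 0.0016 with upper-quartile scaling. ZSWIM8, the ubiquitin ligase subunit of target-directed microRNA decay, was at 34.3 ± 2.38 and 39.2 ± 3.97 CPM. Polycomb repressive complex 2, which deposits H3K27 methylation and is known to silence LINC00632 in melanoma, had 11 tested subunits, 3 higher and 8 lower, with a median of -0.05 and 0 called. JARID2 had the smallest p of them, at 22.7 ± 1.37 CPM in copper and 27.2 ± 4.51 CPM in control. RBBP7 was at 214 ± 5.58 and 216 ± 8.12 CPM.

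For comparison, 12 genes of metal and stress response were set beside the 3 genes in the same libraries. Of 10 tested, 7 were higher in every copper library (5.45% of all tested genes), 0 were called without the block and 7 rose with it, against 0.124% of all tested genes called higher in that fit. This list was drawn up with earlier results of these samples known, so its count is not independent evidence. The metallothionein MT2A was at 719 ± 85.9 CPM in copper and 343 ± 12.8 CPM in control, with an adjusted p by edgeR of 0.0843 without and 0.00516 with the block. The aldo-keto reductase AKR1C3 was at 27.2 ± 3.30 and 6.74 ± 1.63 CPM (0.0843 and 0.000869). MT1E, MT1X, HMOX1, AKR1C1 and NQO1 had log2 fold changes of 1.23, 2.02, 1.09, 1.71 and 0.68, with adjusted p-values by edgeR of 0.10 to 0.804 without and 0.00236 to 0.0232 with the block. Metallothioneins and aldo-keto reductases have near-identical copies, so the split of their counts is uncertain. The log2 fold change of LINC00632 was of similar size to those of AKR1C1, AKR1C3 and MT1X, with the opposite sign.

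**Figure D5:**
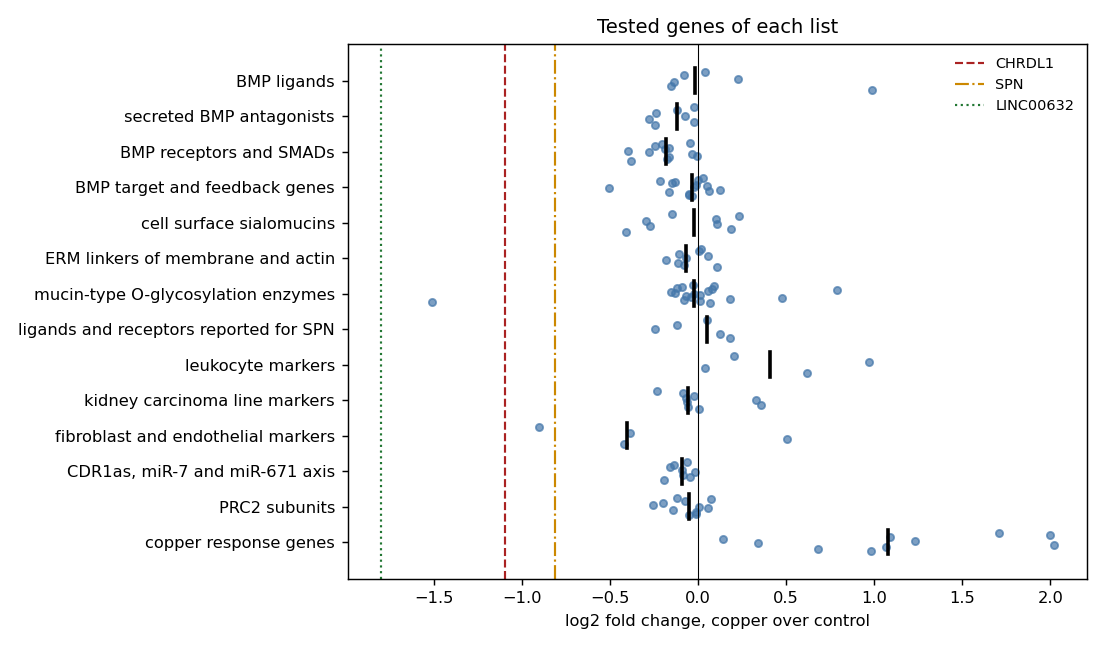
Log2 fold change of copper over control (horizontal axis) for each tested gene of 14 lists (points), with the median of each list as a black bar. Vertical lines mark CHRDL1 (-1.09), SPN (-0.81) and LINC00632 (-1.80), and only ST6GALNAC3 and COL1A1 of the list genes lie below SPN.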

How the data were processed

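The authors deposited 1 table of raw read counts per gene for 6 libraries, made with the directional NEBNext Ultra II kit, per the labels. The build GRCh38 and the tools STAR, FastQC and edgeR are named in the submitters' processing notes, and the counting program, its use of strand and the handling of multi-mapping reads are not given in the sources used here. The 3 genes, the lists and the tests were chosen with earlier results of these data known.

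Rows with no symbol or with a symbol that occurs more than once (5 rows, 0.000814% of counts) were left out. In R 4.3.3, genes that passed filterByExpr (at least 10 counts, total at least 15) were scaled with TMM and compared, copper against control, by the robust quasi-likelihood test of edgeR 4.0.16, with Benjamini-Hochberg adjustment over 12944 genes, called under 0.05. The prior count of the log2 fold changes was 2. SE was taken as the fold change over the root of F. Poisson intervals were exact (95%).

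Replicate numbers were checked as pairs. Deviations from the group means correlated across genes at 0.46, 0.40 and 0.65 for replicates 1, 2 and 3, all above 0.1. In both groups replicate 3 stood apart, so replicates 1 and 2 deviated together the other way and could correlate whichever of them were matched. The check therefore cannot show that numbers 1 and 2 mark pairs. The blocked fit is given where it changes a call. A shared day or batch is not stated in the labels. Libraries of one group differed by more than sampling noise (chi-square per degree of freedom at least 5.42), so none was taken for a duplicate of another, which does not show that they were separate cultures. On simulated counts with 200 genes changed 2-fold, the test recovered 187 with 14 false calls among 12978 genes, and 186 with 14 under the block. The simulated counts had the same dispersion for all genes and no replicate effect, and the changed genes were not drawn from low counts. In the real libraries replicate 3 stood apart, so this recovery is no measure of the power of the test there.

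Genes were named by a rule: the 3 genes, the 3 most similar profiles of each, the nearest 2 tested genes on each side, the member of each list with the highest CPM per kilobase and with the smallest p, any called member, and 12 fixed genes. CDR1 and CDR1-AS, which were on the last of these, were not analysed here. The values of 1 neighbouring gene are not reported here. Alternatives were other scalings and filters, DESeq2 1.42.0, limma-voom (limma 3.58.1), a prior count of 0.125, the block, each library left out, and replicates 1 and 2 alone.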

Additional observations from a re-analysis of the deposited data

How the results depend on the processing

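The log2 fold changes of the 3 genes moved by less than the spread between replicates under all 16 alternatives, which says little of their direction, since the choice of genes fixed it. With one replicate left out at a time they ranged from -1.19 to -0.989 for CHRDL1, -0.901 to -0.698 for SPN and -1.89 to -1.72 for LINC00632. Under the other alternatives they ranged from -1.11 to -1.04, -0.829 to -0.784 and -1.90 to -1.77. With the replicate block they were -1.09, -0.82 and -1.80. The depth limits LINC00632 most, with 15 to 21 counts in the copper libraries. The number of genes lower in every copper library was 509 to 1038 under other scalings and filters, against 693.

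The number of genes called, 0 in the reported fit, was 22 with the replicate block, 27 with DESeq2, 12 with no filter and 111 in replicates 1 and 2 alone. Leaving out one replicate gave from 0 to 15, with 15 without copper replicate 3. The cause was not tested. The block added the calls of 7 copper response genes and changed no other call among the genes named, and DESeq2 called the same number of that list. In replicates 1 and 2 alone ICAM1 was also called (-0.33, adjusted p by edgeR 0.0320). With one library left out the list medians moved as well. That of the BMP receptors and SMADs ranged from -0.246 to -0.0757, of the linkers from -0.177 to 0.0925 and of the O-glycosylation enzymes from -0.0953 to 0.0665 (the highest of each without copper replicate 3), and of the leukocyte markers from 0.304 to 0.914. Scaling shifted the median gene little, to 0.033 at most on the log2 scale.

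Of the 48 other genes tested and named, 19 changed sign under at least one alternative, each with a reported log2 fold change of at most 0.33 in size. With upper-quartile scaling ID1 was at 0.0266, HNRNPK at 0.00156 and RBBP7 at 0.0120. With total counts ID1 was at 0.0216, ID3 at 0.00294, HNRNPK at 0.00804 and RBBP7 at 0.0161. With no filter QPRT was at -0.00718, EZR at -0.0155 and VIM at -0.0152, with limma-voom QPRT at -0.0169 and VIM at -0.00944, and with the replicate block QPRT at -0.00965 and VIM at -0.00900. In replicates 1 and 2 alone QPRT was at -0.0878, LDOC1 at -0.100, BMP1 at -0.0590, ID2 at -0.0214, RDX at 0.0709, LGALS1 at -0.0888, VIM at -0.119 and HNRNPK at 0.0442.

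With one replicate left out the ranges of these genes were -0.191 to 0.127 for AMMECR1, -0.108 to 0.131 for BMP1, -0.00511 to 0.486 for CD24, -0.0697 to 0.111 for EZR, -0.0695 to 0.0682 for HNRNPK, -0.505 to 0.240 for ID1, -0.154 to 0.182 for ID2, -0.153 to 0.117 for ID3 and -0.231 to 0.0417 for KIF22. They were -0.145 to 0.141 for LDOC1, -0.126 to 0.266 for LGALS1, -0.0509 to 0.0814 for NFATC2IP, -0.459 to 0.0787 for NPIPB11, -0.0584 to 0.560 for PAK3, -0.212 to 0.245 for QPRT, -0.0427 to 0.00600 for RBBP7, -0.187 to 0.137 for RDX, -0.315 to 0.0133 for ROCK1 and -0.157 to 0.0818 for VIM.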
